A study of Mus musculus with 6 samples.

Results

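The genes described here are Serpina3n, C4b, C3, Serping1, Il33, Klk6, Apod and Cd63, 8 genes known from disease-associated oligodendroglia and from the complement system. They were chosen by name, and every element-gene pair with one of them as target was taken from the 2 deposited tables of predicted enhancer-promoter pairs. Of the 8 genes, 7 were a target in at least 1 table, which together held 32049 target genes. Apod was a target in neither.

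Oligodendrocyte precursor cells (OPCs) came from brains of early postnatal pups labelled C57BL/6j with the genotype Sox10-Cre/RCE, in which Cre under Sox10 control turns on a green reporter in the oligodendrocyte lineage. Cells from several brains were combined, selected by the reporter or by CD140a beads, and grown in proliferation medium. At 24 h after passaging the cultures either went on in this medium (Ctr-OPCs) or were given 100 ng/mL IFN-γ in it (IFN-γ-OPCs), for 48 h by the general culture methods, and 3 libraries of each were made by HiChIP, which reads chromatin contacts of regions carrying H3K27ac. Strain, genotype and medium were shared by both groups, and both are cultures of selected cells rather than tissue.

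The deposited values come from the activity-by-contact (ABC) model, which pairs regulatory elements with genes. Activity is a signal of an element made from ATAC-seq and H3K27ac, and contact is how often the element and the transcription start site (TSS) were joined, read in 5 kb bins. The ABC score is activity times contact divided by the gene total, the sum of that product over all elements of the gene, so a score is a share within its gene. A pair scoring above 0.05 is called a connection here. Both tables begin at a score of 0.02 and at a promoter activity quantile of 0.4, the rank of a gene's promoter among all promoters, and a gene below either limit is simply not listed. There was 1 table for the 3 libraries of a group, so no value has a replicate error, the depth is unknown, and no difference below was tested.

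Of the OPC markers Pdgfra, Cspg4, Ptprz1, Sox10, Olig1, Olig2 and Gpr17, 7 of 7 were listed in both tables, with promoter quantiles from 0.815 to 0.995. Markers of other cells were listed too, among them the microglia markers Cx3cr1, P2ry12 and Csf1r in both tables and Aif1 and Tmem119 in IFN-γ-OPCs only, with quantiles from 0.471 to 0.825. Being listed therefore did not separate cell types, and the part of other cells in the values below was not tested. A lower share of cells with an active element and a weaker element in every cell cannot be told apart in such pooled tables.

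Complement is a cascade of plasma proteins in which C4 and C3 are cleaved in turn on a target surface, and the serine protease inhibitor encoded by Serping1 blocks the proteases that start the classical route. Serpina3n is a secreted inhibitor of serine proteases, and together with C4b it is widely used as a marker of oligodendrocytes in injured or diseased tissue. In the mouse central nervous system complement is also known for tagging synapses and myelin debris for removal by microglia.

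The elements that the results turn on are shown first, each as the 300 bases nearest its centre that lie outside annotated exons, on the plus strand of GRCm38 (mm10). They were searched on both strands for the ISRE core bound by interferon-activated factors, for the GAS core TTCNNNGAA and for the AP-1 site TGANTCA, and capitals mark the matches. The first stretch, chr12:104415656-104415955, is intergenic past the 3′ end of Serpina3n, in an element that was a pair of this gene in IFN-γ-OPCs alone. The stretch for C3, chr17:57237498-57237797, lies in an intron of the neighbouring gene Gpr108 within the only element connected with C3. Those for Serping1 (chr2:84831820-84832119, intergenic) and Cd63 (chr10:128895786-128896085, intergenic) lie in elements paired with their genes in IFN-γ-OPCs alone.
Serpina3n downstream element: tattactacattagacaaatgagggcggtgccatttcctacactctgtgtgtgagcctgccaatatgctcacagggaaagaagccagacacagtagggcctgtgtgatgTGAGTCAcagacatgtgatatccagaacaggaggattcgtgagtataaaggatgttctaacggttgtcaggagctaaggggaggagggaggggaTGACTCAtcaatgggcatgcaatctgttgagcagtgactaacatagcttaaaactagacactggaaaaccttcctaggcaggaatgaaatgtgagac
C3 element in Gpr108: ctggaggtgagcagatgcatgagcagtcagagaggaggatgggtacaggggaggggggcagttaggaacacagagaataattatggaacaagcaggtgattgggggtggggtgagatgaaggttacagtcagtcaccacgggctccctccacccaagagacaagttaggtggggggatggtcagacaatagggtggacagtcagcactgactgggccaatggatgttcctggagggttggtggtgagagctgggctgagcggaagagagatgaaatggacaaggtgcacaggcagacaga
Serping1 upstream element: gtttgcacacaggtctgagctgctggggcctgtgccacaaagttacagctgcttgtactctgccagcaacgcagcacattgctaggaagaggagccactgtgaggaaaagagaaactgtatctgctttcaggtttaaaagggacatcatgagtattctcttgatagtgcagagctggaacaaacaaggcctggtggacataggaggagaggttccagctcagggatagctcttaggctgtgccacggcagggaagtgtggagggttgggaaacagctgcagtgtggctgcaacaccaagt
Cd63 upstream element: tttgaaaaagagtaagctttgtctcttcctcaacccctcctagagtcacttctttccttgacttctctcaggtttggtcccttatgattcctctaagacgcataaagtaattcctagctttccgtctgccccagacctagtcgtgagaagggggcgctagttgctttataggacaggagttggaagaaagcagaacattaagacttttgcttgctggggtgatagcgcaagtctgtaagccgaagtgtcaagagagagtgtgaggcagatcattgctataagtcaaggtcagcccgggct
The Serpina3n stretch holds 2 AP-1 matches. The stretches of C3, Serping1 and Cd63 hold no match to the 3 motifs.

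Taking the genes together, 4 of the 8 were listed in Ctr-OPCs (Serpina3n, C3, Serping1 and Il33) and 7 in IFN-γ-OPCs, where C4b, Klk6 and Cd63 were added. Of all genes, 19.6% were listed in IFN-γ-OPCs only and 17.0% in Ctr-OPCs only, and among protein-coding genes these shares were 16.1% and 14.0%. Against this background 3 of the 7 listed genes were in the IFN-γ table only and 0 in the control table only, a difference of a few genes. Their pairs numbered 9 of 66637 in Ctr-OPCs and 17 of 71478 in IFN-γ-OPCs. More pairs with IFN-γ were listed for 6 genes and fewer for 1, Serping1, while 42.4% of all genes (40.6% of protein-coding genes) had more and 35.7% had fewer.

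**Figure D1:**
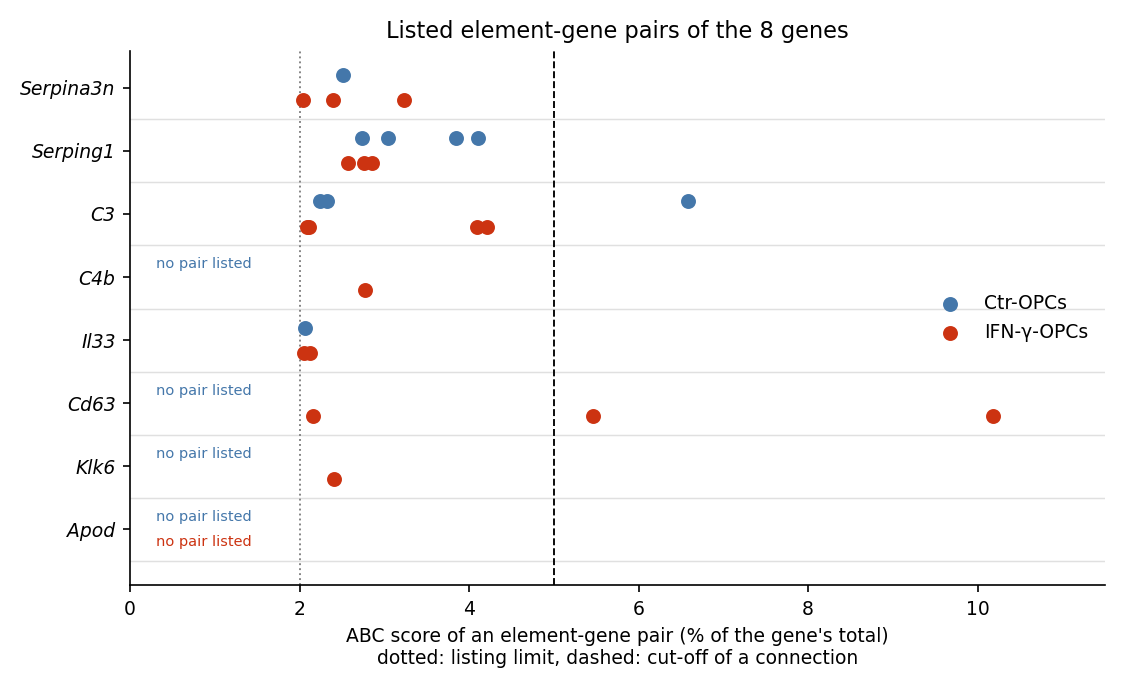
ABC scores, in percent of the gene total, of every listed pair of the 8 genes (1 point per pair, blue for Ctr-OPCs and red for IFN-γ-OPCs). Only 3 points lie beyond the dashed line at the cut-off of a connection: 1 of C3 in Ctr-OPCs and 2 of Cd63 in IFN-γ-OPCs.

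Few of these pairs were connections. In Ctr-OPCs the only one was that of C3 with the element in Gpr108, and in IFN-γ-OPCs there were 2, both of Cd63. So 1 gene had more connections with IFN-γ, beside 14.9% of all genes, 1 had fewer, beside 13.0%, and the other 5 listed genes had none in either table. The plot of scores shows most pairs just above the listing limit, between 2.04% and 4.22% of their gene's total.

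The listed pairs held only a small part of each gene's total. For Serpina3n they made up 2.51% in Ctr-OPCs and 7.67% with IFN-γ, for C3 11.1% and 12.5%, for Serping1 13.7% and 8.19%, and for Il33 2.06% and 4.17%. In the IFN-γ table they held 2.77% for C4b, 2.40% for Klk6 and 17.8% for Cd63. The median over all listed genes was 7.51% and 7.91%, so C3, Serping1 and Cd63 lay above it and the other listed genes below it. The remainder belongs to elements that are not listed, including the promoter itself, since self-promoter pairs numbered 0 in the tables.

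The gene totals of the 4 genes in both tables differed by less than 1.5-fold between the groups. The total of Serping1 was 0.423 in Ctr-OPCs and 0.604 with IFN-γ (arbitrary units), a log2 ratio of 0.51 or 1.43-fold. That of Serpina3n was 0.886 and 0.979 (log2 ratio 0.14), that of Il33 0.387 and 0.432 (0.16), and that of C3 0.867 and 0.798 (-0.12). Thus 3 of the 4 were higher with IFN-γ, but 0 of 4 passed 1.5-fold in either direction, beside 0.615% (higher) and 0.118% (lower) of the 20321 genes that both tables give a total for. The median log2 ratio was 0.15 over the 4 genes and -0.066 over all, of which the middle 50% lay between -0.16 and 0.059. Serping1 exceeded 99.0% of all genes in this ratio, Il33 86.9%, Serpina3n 85.4% and C3 35.9%.

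**Figure D2:**
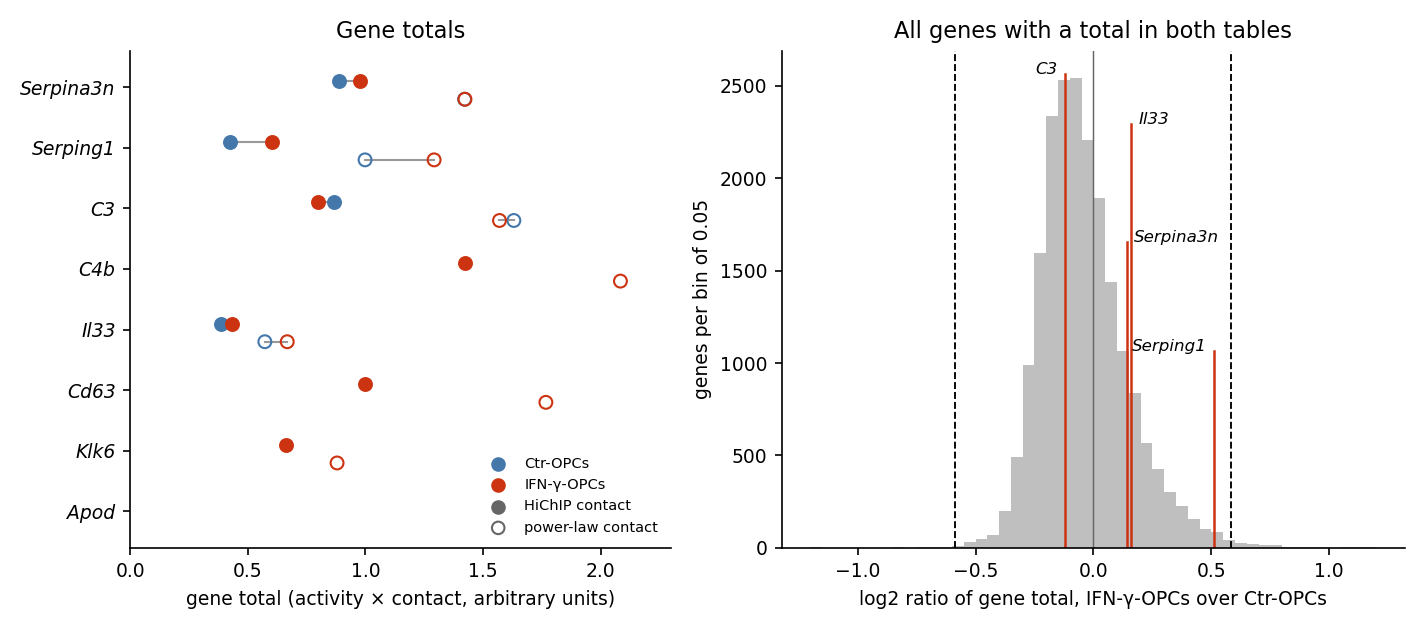
Left, gene totals of the genes in each group that lists them (4 genes in both, C4b, Klk6 and Cd63 in IFN-γ-OPCs only, Apod in neither), with filled points for HiChIP contact and open points for contact set by distance alone (power law); right, log2 ratios of the total over all 20321 such genes, with the 4 shared genes marked and dashed lines at 1.5-fold. Serping1 lies in the right tail at 0.51 short of the dashed line, and C3, at -0.12, lies near the peak.

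With contact set by a power law of distance in place of HiChIP contact, the log2 ratio was 0.37 for Serping1, 0.22 for Il33, 0.0015 for Serpina3n and -0.055 for C3. Serping1 and Il33 were therefore higher with IFN-γ under both kinds of contact, whereas Serpina3n was close to equal with power-law contact. Summed over the deposited pairs only, which hold a small part of the total, activity times contact turned direction for Serping1 (-0.23) and C3 (0.046), and was 1.76 for Serpina3n and 1.18 for Il33. Of the genes listed with IFN-γ only, the total was 1.42 for C4b, 0.996 for Cd63 and 0.664 for Klk6, and no total in Ctr-OPCs is given for them.

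Promoter activity quantiles differed between the groups in both directions. The quantile of Serping1 was 0.632 in Ctr-OPCs and 0.769 with IFN-γ, and that of C3 ran the other way, from 0.709 to 0.586. Serpina3n stood at 0.794 and 0.817 and Il33 at 0.710 in both. C4b entered the IFN-γ table at 0.825, the highest promoter of the 7 there, followed by Serpina3n and Serping1. Cd63 entered at 0.579 and Klk6 at 0.435, close to the limit of 0.4. Which limit C4b, Cd63 and Klk6 missed in Ctr-OPCs cannot be read from the tables.

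**Figure D3:**
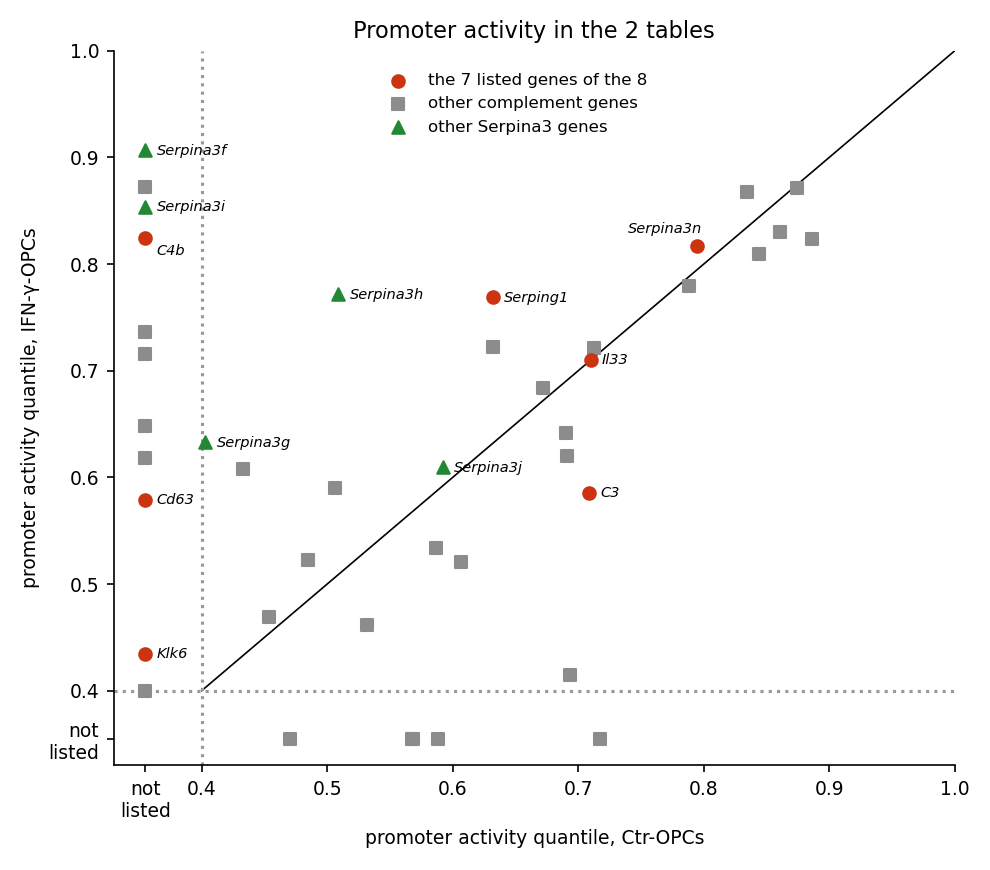
Promoter activity quantile in Ctr-OPCs (horizontal) and IFN-γ-OPCs (vertical) of the 7 listed genes (red), other complement genes (grey) and other Serpina3 genes (green), with genes missing from a table drawn beyond the dotted limit of 0.4. Serping1, Serpina3g and Serpina3h lie well above the diagonal, C3 lies below it, and C4b, Cd63 and Klk6 are at the left edge.

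The protease inhibitor gene Serpina3n (chr12:104406729-104414329, plus strand) had 1 pair in Ctr-OPCs and 3 with IFN-γ. The pair in both tables was with an element at the 3′ end of the gene, 7.48 kb from the TSS and overlapping its 3′ UTR. Its activity was 0.815 in Ctr-OPCs and 0.959 with IFN-γ, its contact 0.0273 and 0.0330, and its score 0.0251 and 0.0324. Both factors were thus slightly higher with IFN-γ, by 0.23 and 0.28 on the log2 scale.

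Another Serpina3n element lay 9.08 kb downstream (chr12:104415557-104416056, intergenic, the first sequence shown above). Its activity was 1.27 in IFN-γ-OPCs, with a score of 0.0204 for Serpina3n. The Ctr-OPC table held the same element with an activity of 0.610, paired only with the small RNA gene Gm24334, so its activity was 2.09-fold higher with IFN-γ. In Ctr-OPCs a further element between these was listed with Gm24334 alone, with an activity of 0.469. The remaining Serpina3n pair of IFN-γ-OPCs was with an element 339 kb upstream, among other Serpina genes, with an activity of 2.74. That element was also active in Ctr-OPCs, at 2.07, where it was paired with Gm28577, Serpina11, Serpina4-ps1 and Serpina5 and not with Serpina3n.

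Neighbouring genes of the Serpina3 cluster encode closely related inhibitors, and reads from such near-copies may be hard to assign. Of the 10 other Serpina3 genes, 3 were listed in Ctr-OPCs and 5 with IFN-γ. Serpina3g had quantiles of 0.403 and 0.633, and Serpina3h of 0.509 and 0.772. Serpina3f (0.907) and Serpina3i (0.853) were listed with IFN-γ only, and Serpina3j was at 0.592 and 0.609. None of the 3 with both totals passed 1.5-fold, and their median log2 ratio was 0.28, beside -0.066 over all genes. With IFN-γ the totals of Serpina3f, Serpina3g, Serpina3h and Serpina3i were nearly equal, at 0.957, 0.958, 0.957 and 0.969, and that of Serpina3j was 0.828. Totals of such neighbours may not be independent values. Serpina3g was the member of the cluster that gained a connection. The 2 of 5 listed with IFN-γ only and the 1 of 5 with more connections are small counts beside 19.6% and 14.9% of all genes.

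Serping1 (chr2:84765387-84775444, minus strand), the inhibitor of the first complement proteases, had 4 pairs in Ctr-OPCs and 3 with IFN-γ. The pairs in both tables were with an element 3.94 kb upstream and one 140 kb downstream in an intron of Ctnnd1. The near element had an activity of 0.288 in Ctr-OPCs and 0.315 with IFN-γ, and scores of 0.0274 and 0.0257. The far element was among the most active of all, at 4.76 and 4.52, above 99.1% and 99.2% of listed elements, and was shared with 41 other targets in Ctr-OPCs and 20 with IFN-γ. Its score for Serping1 was 0.0384 and 0.0276. The scores of both elements were lower with IFN-γ while their listed contact was slightly higher (log2 ratios 0.29 for the near and 0.11 for the far one). This is possible because a score is divided by the gene total, which was 1.43-fold higher. The near element lay in the 5 kb bin of the TSS itself, so its contact is not a separate measurement for that element.

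The remaining Serping1 pairs differed between the groups. Elements 16.4 and 18.2 kb downstream were listed in Ctr-OPCs only, with scores of 0.0411 and 0.0304 and activities of 0.696 and 0.515. No element overlapping them was listed in IFN-γ-OPCs. Conversely, an element 56.5 kb upstream (chr2:84831721-84832220, between Timm10 and Slc43a1) was paired with Serping1 in IFN-γ-OPCs only, with a score of 0.0286. Its activity was 2.47 with IFN-γ and 0.846 in Ctr-OPCs, where it was listed with Gm13692, Smtnl1 and Timm10, a 2.93-fold difference. Its activity times contact for Serping1 was at least 2.04-fold higher with IFN-γ than the listing limit in Ctr-OPCs. For the downstream elements listed in Ctr-OPCs only, this quantity was at least 1.44-fold (16.4 kb) and 1.07-fold (18.2 kb) the limit in IFN-γ-OPCs. In the IFN-γ table the element 56.5 kb upstream was also paired with Ctnnd1, Rtn4rl2, Smtnl1, Timm10 and Ube2l6.

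**Figure D4:**
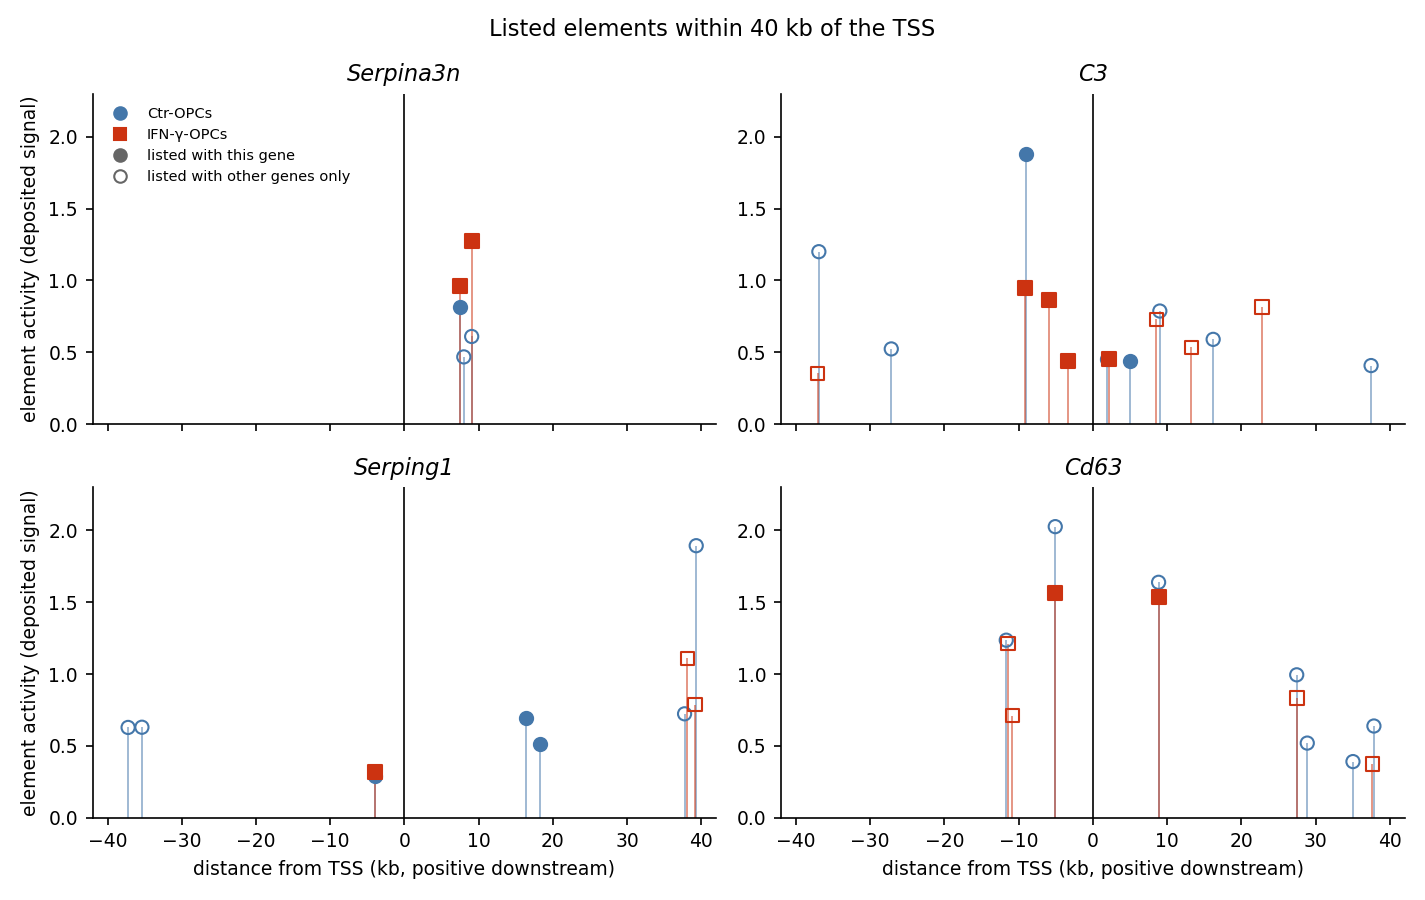
Activity of every listed element within 40 kb of the TSS of Serpina3n, C3, Serping1 and Cd63 against distance from the TSS (blue circles Ctr-OPCs, red squares IFN-γ-OPCs; filled where the element was paired with the named gene, open where only with other genes). Around Cd63 the filled red squares have open blue circles at like or greater height, whereas at C3 the filled blue point near -9 kb stands above the red one.

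C3 (chr17:57203970-57228136, minus strand), the central component on which the complement routes converge, had its pairs rearranged. The connected element of Ctr-OPCs lay 8.96 kb upstream of the TSS, over coding exons and introns of Gpr108 (chr17:57235720-57238476). Its score was 0.0658 in Ctr-OPCs and 0.0211 with IFN-γ, a log2 ratio of -1.64. Activity was 1.88 and 0.945 (-0.99), and contact 0.0304 and 0.0178 (-0.77), so both factors were over 1.5-fold lower. Among 11517 matched pairs with a connection in either group, activity was over 1.5-fold lower in 12.1% and higher in 10.3%, and contact was lower in 10.7% and higher in 14.6%. The C3 pair entered this set through its score in Ctr-OPCs alone, which favours lower values with IFN-γ. It therefore cannot be read against these shares.

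The length of this element differed between the tables, at 2757 bp in Ctr-OPCs and 1602 bp in IFN-γ-OPCs. Per kb the activity was 0.681 and 0.590, a log2 ratio of -0.21, smaller than that of the whole elements. Across all listed elements of Ctr-OPCs activity and length were only weakly related (Spearman rho 0.034 over 33083 elements, as a description), although elements over 1500 bp had a median activity of 1.35 against 0.941 for those of 500 bp.

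Nearer the C3 TSS the pairs differed in both directions. The element 1.93 kb downstream, in coding sequence of C3, had activities of 0.457 in Ctr-OPCs and 0.453 with IFN-γ, over 745 and 500 bp, so per kb these were 0.613 and 0.905, higher with IFN-γ. The contact listed for it was 0.0441 and 0.0743 and the score 0.0232 and 0.0422. An element 5.93 kb upstream, with an activity of 0.865 and a score of 0.0410, and one 3.33 kb upstream, with 0.440 and 0.0208, were listed in IFN-γ-OPCs only. For the first the activity times contact was at least 1.88-fold the listing limit in Ctr-OPCs, and for the second it lay below that limit, so the second pair could have had the same value in both groups. An element 5.04 kb downstream was paired with C3 in Ctr-OPCs only, at 0.0224, with activity times contact at least 1.22-fold the limit in IFN-γ-OPCs. The upstream elements of IFN-γ-OPCs lay in one bin and shared a contact of 0.0378. The downstream elements of Ctr-OPCs both had 0.0441, although the nearer one lay in the bin of the TSS itself and the other in the next. Neither set gives separate measurements of contact for its elements.

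C4b (chr17:34728380-34743882, minus strand) encodes the complement component cleaved ahead of C3 and was listed with IFN-γ only. Its single pair was with an element 1.44 kb upstream of the TSS (chr17:34744620-34746022), over an exon of the pseudogene Stk19-ps1, with an activity of 0.842, a contact of 0.0469 and a score of 0.0277. No element was listed within 40 kb of the C4b TSS in Ctr-OPCs. C4a, a near-identical neighbour, was likewise listed with IFN-γ only, at a quantile of 0.648 and a total of 1.498. Because the 2 genes are close copies, signal at one may include reads of the other.

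The alarmin gene Il33 (chr19:29925114-29960718, plus strand), whose product is released from damaged cells, had no listed element within 40 kb of its TSS in either table. In Ctr-OPCs it was paired with an element 65.9 kb upstream at a score of 0.0206. In IFN-γ-OPCs it was paired with elements 54.4 kb and 229 kb downstream at 0.0213 and 0.0205, the latter in an intron of Gldc. All 3 lie just over the listing limit of 0.02. The activity of the Gldc element was 0.906 in Ctr-OPCs and 0.961 with IFN-γ, and no element overlapping the others was listed in the opposite table.

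Klk6 (chr7:43824499-43832030, plus strand), a secreted serine protease known from mature oligodendrocytes, was listed with IFN-γ only. Its pair was with an element 17.5 kb upstream, between Klk8 and Klk7, with an activity of 0.923 and a score of 0.0240. The same element was paired with Klk7, Klk8 and 2310002F09Rik, and no overlapping element was listed in Ctr-OPCs. Within 40 kb of the TSS there was 1 listed element in Ctr-OPCs and 4 with IFN-γ, and the element common to both groups, at -36.3 kb from the TSS, had activities of 1.04 and 1.17.

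Apod (chr16:31296192-31314808, minus strand), which encodes a lipid-binding lipocalin, was a target in neither table, although elements were listed around it. Within the gene, 15.03 kb from its TSS, an element with an activity of 1.32 in Ctr-OPCs was paired with Gm49546, Gm49767 and Ppp1r2. Its counterpart with IFN-γ was at 0.908 and was paired with Gm49546 and Gm49767. The element spanned 1275 bp in Ctr-OPCs and 500 bp with IFN-γ, and per kb the direction was the opposite, at 1.04 and 1.82. The limit that kept Apod out cannot be read from the tables.

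Cd63 (chr10:128900989-128912822, plus strand), a tetraspanin of late endosomes and exosomes, had no pair in Ctr-OPCs and 3 with IFN-γ. Its strongest pair scored 0.102, with an element 8.84 kb downstream of the TSS used in the tables, and the next scored 0.0546, with an element 5.05 kb upstream. The last, at 0.0215, was with an element 314 kb upstream in an intron of Erbb3 that had 15 other targets. With IFN-γ the downstream element was also listed with Bloc1s1, Gdf11, Itga7, Mettl7b, Olfr9 and Rdh5, and the element 5.05 kb upstream with Gdf11. Counting connections only, Gdf11 was the only gene that shared one of these elements with Cd63 (1 element, a Jaccard share of 0.333).

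The connected elements of Cd63 were not more active with IFN-γ. The downstream element had an activity of 1.64 in Ctr-OPCs, where it was paired with Bloc1s1, Gm25494, Itga7 and Rdh5, and 1.53 in IFN-γ-OPCs. The upstream element was at 2.02 in Ctr-OPCs, paired with Bloc1s1, Gdf11 and Rdh5, and at 1.56 in IFN-γ-OPCs. The Erbb3 element was at 3.60 over 1882 bp with IFN-γ and was split in Ctr-OPCs into elements of 1.496 over 500 bp and 1.54 over 793 bp. The TSS that the tables use for Cd63 lies 8.36 kb upstream of the start in RefSeq, and the downstream element begins 235 bp past that RefSeq start, in an untranslated exon. The pair with the highest score of the 8 genes was therefore with a region beside an annotated start of Cd63 itself, and the quantile of 0.579 belongs to the upstream start.

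Comparing all pairs, 5 in each table had a counterpart with the same target, and 4 in Ctr-OPCs and 12 with IFN-γ did not. Of those 12, 7 were with elements that the Ctr-OPC table listed with other targets, and 5 had no overlapping element there. Of the 4 in Ctr-OPCs, 0 had an overlapping element in the IFN-γ table. Matched to any overlapping element, whatever its target, 12 elements of these genes could be compared. Their activity was over 1.5-fold higher with IFN-γ in 3 and lower in 1, the C3 element in Gpr108, and among all 19332 matched elements 9.37% were higher and 13.3% lower. The counts cannot be read against these shares, since 7 of the 12 elements entered through pairs listed with IFN-γ only and 0 through pairs listed in Ctr-OPCs only, and the 3 higher ones were all among those 7. The 3 were the downstream Serpina3n element, the upstream Serping1 element and the Erbb3 element paired with Cd63. The last was matched to 1 of its 2 pieces in Ctr-OPCs, and against their summed activity of 3.04 it was 1.18-fold higher, and 0.813-fold per kb. With pieces summed, 2 elements were therefore over 1.5-fold higher and 1 lower, and per kb 2 and 0, a setting chosen after seeing the data.

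Motifs were counted in the central 500 bp of each element. A GAS core match was in 1 of 9 elements of the genes in Ctr-OPCs (11.1%) and 0 of 17 in IFN-γ-OPCs, beside 13.9% and 15.2% of all listed elements. An ISRE core match was in 1 of 9 (11.1%) and 1 of 17 (5.88%), beside 5.41% and 8.60%, and the latter was in the Erbb3 element. An AP-1 match was in 1 of 9 and 4 of 17 (23.5%), beside 14.5% and 16.2%. The core bound by NF-kB was in 55.6% and 47.1%, beside 56.6% and 54.3%. In all listed elements the shares with GAS, ISRE and AP-1 matches were higher in the IFN-γ table. Among the genes' own elements that held for AP-1 only, a contrast that rests on a few elements and was not tested.

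The same search was made in promoter windows of 300 bp from RefSeq on GRCm38, which held 6 of the 8 genes (Serpina3n, C3, Il33, Klk6, Apod and Cd63). No GAS, ISRE or AP-1 match was in any of them, beside 8.30%, 3.44% and 7.81% of 32851 promoters. The NF-kB core was in those of Serpina3n, C3, Klk6 and Apod, beside 50.8% of all. These counts describe letters in a window and not binding.

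The wider complement system was described with a list of 42 symbols of other complement genes, of which 41 were annotated mouse genes. Of these, 30 were listed in either table, 24 in Ctr-OPCs and 25 with IFN-γ. Of the 19 with both totals, 0 passed 1.5-fold in either direction, and their median log2 ratio was -0.095, beside -0.066 over all genes. In the list 6 of the 30 genes were listed with IFN-γ only and 5 in Ctr-OPCs only, close to the shares over all genes (19.6% and 17.0%). Connections were more numerous with IFN-γ for C1s1 (a protease of the first component), Cfb (the protease of the alternative route) and Clu (a soluble inhibitor), each from 0 to 1, and fewer for Masp1 of the lectin route, from 1 to 0. These counts of 3 and 1 of 30 stand beside 14.9% and 13.0% of all genes. C1s1, Cfb and Clu had quantiles of 0.715, 0.642 and 0.868 with IFN-γ, and in Ctr-OPCs Cfb was at 0.690 and Clu at 0.835 while C1s1 was not listed.

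By route, the classical genes C1qb and C1qc, parts of the recognition molecule, had totals of 1.77 and 1.79 in Ctr-OPCs and 1.56 and 1.60 in IFN-γ-OPCs. C2, the partner of C4, had totals of 1.78 and 1.67. Cfi, which inactivates C3b and C4b fragments, showed the widest drop of quantile among the list's genes in both tables, 0.694 to 0.415, while Vtn, at 0.717 in Ctr-OPCs, was not listed with IFN-γ. The receptor C5ar2 was at 0.433 and 0.607, and C5ar1 at 0.606 and 0.521. Among the genes listed with IFN-γ only were C1s1, C4a, Cfd, Cr1l and Cd46, and the 5 in Ctr-OPCs only were C1ra (the partner protease of C1s1), C8a, Mbl2, Cd59b and Vtn. Among the regulators and receptors, Cr1l (0.872) and Cd46 (0.736), which act on C3b and C4b at the cell surface, were thus in the IFN-γ table only, while Cr2, Cd59a, Susd4 and Csmd1 were in both. As with the 8 genes, these are single values of pooled libraries.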

How the data were processed

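HiChIP for H3K27ac was made from cultured mouse OPCs, with 3 libraries in Ctr-OPCs and 3 with IFN-γ, grouped by the treatment in the labels. Per the labels and the study's methods, the authors aligned reads to mm10 and removed duplicates with HiC-Pro, and fed contacts, ATAC-seq and H3K27ac CUT&RUN into the ABC model with default parameters. Scaling between the groups is not given in the sources used here.

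The deposited ABC score is a fraction of the gene total, the deposited activity is a signal, and the deposited promoter quantile, contacts, power-law values and products of activity and contact were handled as score values. The authors supplied 1 table a group, so the libraries are pooled, the depth is unknown and no test was possible.

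A gene total was taken as the deposited numerator over the deposited score, the median over the pairs of the gene. Elements were matched by at least 1 bp of overlap, mutual best. A 1.5-fold limit served for description. Each gene was named with every connection or, without one, its listed pairs. The genes and all lists were chosen with earlier results of these data known. Symbols and exons came from GENCODE M21, promoters and sequence from RefSeq's GRCm38.p6. A few items are not reported here. The scripts were tested on simulated data. Python 3.11.15, pandas 2.3.3, NumPy 2.4.6, matplotlib 3.10.9 and pyfaidx 0.9.0.4 were used. Alternatives were the cut-off, the number of connections, power-law contact, other folds, scaling, overlap and pseudocount, with matching to any target, summing of split elements and activity per kb chosen after seeing the data.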

Additional observations from a re-analysis of the deposited data

How the results depend on the processing

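Each table pools 3 libraries, so no library could be left out, and no paired analysis was possible because the replicate numbers of the labels have no columns in the tables. Counts of a few pairs moved with the cut-off. Over all deposited pairs the 8 genes had 9 in Ctr-OPCs and 17 with IFN-γ, with 6 genes having more. Above 0.1 the counts were 0 and 1 connections, with 0 genes with fewer. With the power-law score there were 5 in IFN-γ-OPCs, 2 genes had more (Serpina3n and Cd63) and 0 fewer. Taking equal numbers of top-scoring connections changed none of the 4 counts. The median log2 ratio of the totals was 0.61 over deposited pairs only, with 2 genes past 1.5-fold (Serpina3n and Il33) and the sign turned for Serping1 (0.51 to -0.23) and C3 (-0.12 to 0.046), and 1 gene (Serping1) was past the lowest fold tried. Scaling by the median and the power-law total left this median on the same side, at 0.22 and 0.11. The activity value of the connected pair, -0.99 for C3 alone, was -0.013 over all 5 matched pairs, -0.21 per kb of length and, with the sign turned, 0.11 over 12 elements matched to any target (also 0.11 with split pieces summed), these last chosen after seeing the data. The contact value, -0.77 for C3, turned to 0.28 over the 5 matched pairs. Except for the value per kb, taken on the same C3 pair, these alternatives of activity and contact use other pairs or elements, and the causes were not tested.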

Other observations

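Of a list of 22 further genes of oligodendrocyte states, 20 were listed in either table, 18 in Ctr-OPCs and 20 with IFN-γ. None of the 18 with both totals passed 1.5-fold, and their median log2 ratio was -0.0091. Connections numbered 17 in both tables, with more for 4 genes (among them Anln, Socs3 and Trf) and fewer for 4 (Cd9, Grm3, S100b and Selenop) of the 20, beside 14.9% and 13.0% of all genes. The interferon-inducible surface protein gene Bst2 had promoter quantiles of 0.512 in Ctr-OPCs and 0.825 with IFN-γ. Klk8, beside Klk6, was at 0.624 and 0.718. Car2, a carbonic anhydrase of oligodendrocytes, had totals of 0.186 and 0.262, a log2 ratio of 0.49 that was 0.30 with power-law contact. Selenop, a selenium carrier, had totals of 0.190 and 0.259, a log2 ratio of 0.45 that was -0.25 with power-law contact, so its direction depended on the contact used.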
